A study of Mus musculus with 26 samples.

Results

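The measurements described here are those of wild-type (WT) S49 cells, a mouse T-lymphoma line, after 24 h with 100 µM 8-CPT-cAMP, a cell-permeable analog of cyclic AMP (cAMP). They were taken by their titles: 3 arrays of WT cells at 24 h (arrays 4, 19 and 39) and 4 arrays of untreated WT cells at 0 h (arrays 1, 13, 16 and 36), so 7 of the 26 arrays of the series, and every named gene was examined. Comparisons also used 3 WT arrays at each of 2 and 6 h with the same agent, and the Kin- line, which is S49 without working protein kinase A (PKA) as far as is known, with 3 arrays at 24 h and 4 untreated ones. The labels give no age, passage or clone for either line. Untreated cells were measured at 0 h only, so a day with the analog and a day in culture cannot be told apart within WT cells.

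cAMP releases the catalytic subunits of PKA, which phosphorylate CREB-family factors at cAMP response elements (CRE) and many other proteins. S49 cells are known for answering a lasting cAMP signal with arrest in the G1 phase and then apoptosis, in which the BH3-only protein BIM has been placed. In G1 arrest, cells with little cyclin-dependent kinase activity keep Rb-family pocket proteins bound to E2F factors, and the genes of DNA replication and of mitosis, many of which carry E2F sites or CHR elements near their starts, are held low.

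Levels are square roots of the deposited scores, used as log2-like units because of their range (0.61 to 16.35). No source states the scale, and 1 unit need not equal a doubling. Changes are means at 24 h minus means at 0 h with the standard error (SE) of the fit, and a gene "rose" or "fell" where the adjusted p of limma was under 0.05. The labels do not tell whether the cells behind each array were grown apart, and the p-values therefore reflect only array-to-array spread, which may be technical. Arrays 1 to 14 and arrays 16 to 47 separated on the first component of the residuals (35.5% of their variance), and among the 24 h WT arrays only array 4 belongs to the first of these sets. Of 9 measured T-lineage markers 8 were above the median level of all probe sets. The summed level of the 9 was 89.96 to 93.53 at 24 h against 89.94 to 92.21 at 0 h. Of these markers 5 rose and 3 fell, so similar sums do not mean unchanged markers. Of the markers of other lineages, 0 of 6 for B cells, 0 of 6 for fibroblasts, 0 of 3 for erythroid cells, 1 of 7 for myeloid cells (Csf1r) and 1 of 5 for epithelium (Krt5) were above it in their mean over all arrays. The sum of the myeloid markers was 27.99 to 30.51 at 24 h and 27.27 to 27.85 at 0 h, and its part in the results was not tested. Of these 7 markers only Itgam, an integrin of myeloid cells, passed the test, with a mean of 6.61 at 24 h and 4.50 at 0 h (adjusted p = 1.64e-06), while Csf1r averaged 5.66 at 24 h and 5.80 at 0 h (adjusted p = 0.258).

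At 24 h, 4033 of 12393 genes (32.5%) had passed the test, 2016 higher (16.3%) and 2017 lower (16.3%). By at least 1 unit, 796 genes rose (6.42%) and 719 fell (5.80%), and the median change of all genes was −0.006. The 24 h and 0 h arrays did not overlap in 4209 of the 12393 genes, and in 3675 of the 4033 that passed. Of these 4033 genes, 4005 moved in the same direction in both array sets. The test used the same arrays, so high shares among the genes that passed were partly built in. The gene groups differed in which direction their members took. Groups of DNA replication, mitosis, ribosome assembly, one-carbon metabolism, splicing and nuclear transport held mostly genes that fell, while groups of lysosomes, autophagy, quiescence and T-cell signalling held mostly genes that rose or did not pass.

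**Figure D1:**
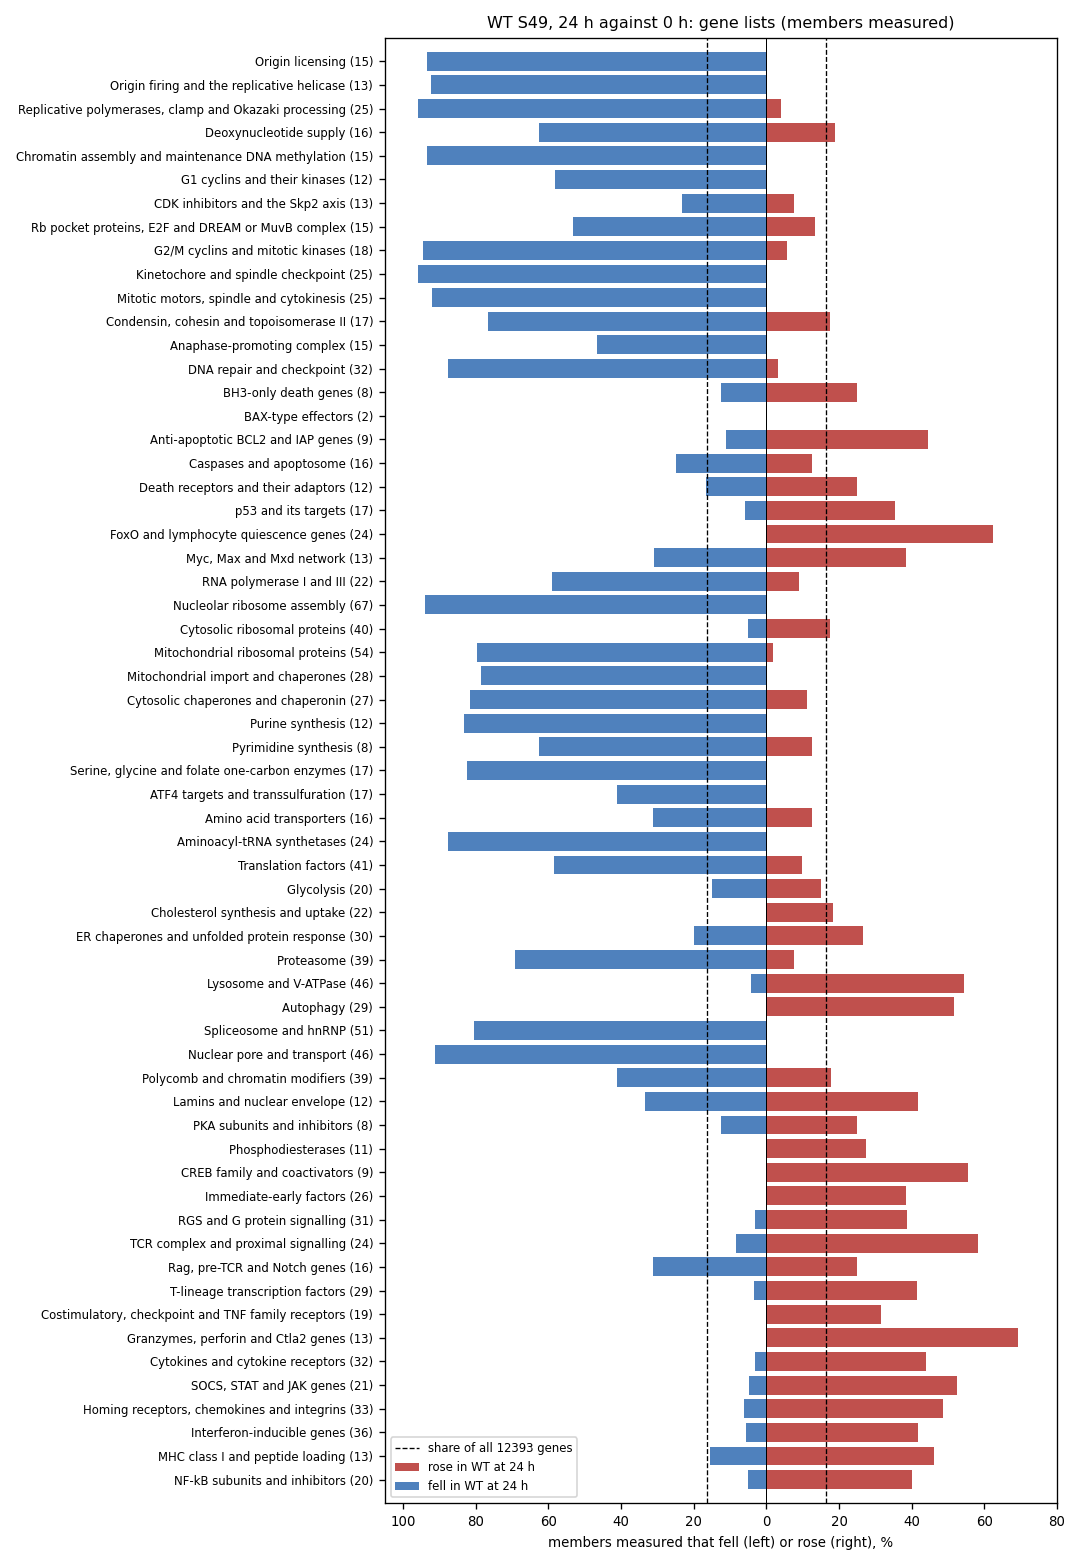
Bars give, for each gene list (rows), the percentage of measured members that rose (right) and fell (left) in WT cells at 24 h against 0 h, with the dashed lines at the 16.3% of all genes that rose and the 16.3% that fell. The replication, kinetochore, nucleolar and nuclear pore lists lie almost wholly on the left, and the quiescence, lysosome and T-cell receptor signalling lists mostly on the right.

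Of the G1 cyclins and their kinases 7 of 12 fell and 0 rose (median −0.43, against −0.01 for all genes). Ccne2, a cyclin that drives entry into S phase, had levels of 6.34, 4.97 and 5.03 on the 24 h arrays 4, 19 and 39, against 9.39, 8.91, 9.24 and 8.81 on the 0 h arrays 1, 13, 16 and 36 (the order of arrays used throughout). All 3 treated arrays lay far below all 4 untreated ones, and Ccne2 fell by 3.64 ± 0.26 (SE, adjusted p = 7.26e-10). Ccne1, its close relative, fell by 1.93 and Ccnd3, the D-type cyclin of thymocytes, by 1.44. The kinase gene Cdk2 fell by 0.57, while Cdk6, a partner of D-type cyclins, had a change of −0.24 with adjusted p = 0.926. Ccnd2, another D-type cyclin, had a change of 0.04 (adjusted p = 0.991). Cdk4 fell by 0.37, but without array 19 its change was −0.19 with adjusted p = 0.0917.

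Among 13 CDK inhibitors and genes of the Skp2 axis, 1 rose (7.69%) and 3 fell (23.1%), beside 16.3% of all genes in each direction. The riser was Cdkn1b, which encodes the inhibitor p27, with levels of 9.60, 10.68 and 10.68 at 24 h against 8.52, 8.24, 9.01 and 9.43 at 0 h, a change of 1.52 ± 0.36. The treated arrays were all above the untreated ones, although array 4 exceeded the highest of these by little. Skp2, the ubiquitin ligase subunit that marks p27 for destruction, stood at 7.22, 5.98 and 6.90 at 24 h, against 9.35, 9.50, 9.45 and 9.37 at 0 h. It fell by 2.72 ± 0.21, and Cks1b and Cks2, small partners of these kinases, fell by 0.94 and 0.77. Cdkn1a, which encodes p21, had levels of 3.44 to 3.63 at 24 h and 3.56 to 3.63 at 0 h (change −0.05, adjusted p = 0.961), and Cdkn2c, which encodes p18, had a change of −0.56 with adjusted p = 0.138.

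Of 15 pocket protein, E2F and MYB-family genes, 8 fell and 2 rose. The 2 that rose were pocket proteins: Rbl2, which encodes p130, the pocket protein of resting cells, and Rb1. Rbl2 stood at 8.91, 9.73 and 9.59 at 24 h and at 7.27, 7.13, 7.33 and 7.51 at 0 h, without overlap, and rose by 2.10 ± 0.20 (adjusted p = 4.32e-08). Rb1 rose by 0.58 ± 0.15, and Rbl1, which encodes p107, had a change of −0.39 (adjusted p = 0.205). The members that fell included Mybl2 with −2.65, E2f8 with −2.12, Foxm1, an activator of mitotic genes, with −1.93 and E2f1 with −1.45.

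DNA replication genes fell in nearly every step of the process. Origin licensing, which loads the helicase in G1, had 14 of 15 genes lower and 0 higher (median −1.66), and 12 of them fell by at least 1 unit. Origin firing had 12 of 13 lower and 0 higher (median −1.91). Of the replicative polymerases, clamp and Okazaki-fragment genes 24 of 25 fell (median −1.23), and the remaining member, the small polymerase delta subunit Pold4, rose by 0.72 ± 0.12. RNA came from whole cultures, so fewer cells in a phase and less RNA per cell cannot be told apart here or in the mitotic groups.

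Cdc6, which recruits the MCM helicase to origins, had levels of 10.14, 7.47 and 8.59 at 24 h, against 11.67, 11.53, 11.56 and 11.38 at 0 h. It fell by 2.80 ± 0.34 (adjusted p = 1.22e-06), and array 4 lay closest to the untreated arrays. Mcm5, a helicase subunit, fell by 2.25, Orc6, of the origin recognition complex, by 2.21 and Cdt1, a licensing factor, by 2.17. In firing, Gins1 and Cdc45, which complete the active helicase, fell by 2.76 and 2.63, Mcm10 by 2.49 and Timeless, of the fork protection complex, by 2.08. At the fork, Pold2 fell by 2.35, the clamp loader genes Rfc3 and Rfc5 by 2.31 and 2.21 and Pole2 by 2.18.

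The supply of deoxynucleotides was split. Of 16 genes 10 fell and 3 rose. Tk1, the thymidine kinase of S phase, fell by 2.66, Rrm2 and Rrm1, the subunits of ribonucleotide reductase, by 1.81 and 1.68, and Tyms, thymidylate synthase, by 1.44. Samhd1, a hydrolase that degrades deoxynucleotides, stood at 6.24, 8.42 and 7.64 at 24 h against 4.52, 4.78, 3.92 and 4.45 at 0 h and rose by 3.02 ± 0.40 (adjusted p = 3.27e-06). The groups did not overlap, but array 4 was closest to the untreated arrays. The other 2 that rose, Tk2 (1.13 ± 0.18) and Dguok (0.88 ± 0.13), encode the mitochondrial deoxynucleoside kinases, which also serve resting cells.

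Genes that restore chromatin behind the fork fell in 14 of 15 cases (median −1.50) with 0 higher. Hells, a remodeller needed for DNA methylation in lymphoid cells, had levels of 8.82, 7.03 and 7.52 at 24 h against 10.66, 10.51, 11.24 and 10.76 at 0 h. The treated arrays were all lower, and it fell by 3.00 ± 0.27 (adjusted p = 2.1e-08). Uhrf1, which guides the maintenance methyltransferase, fell by 2.15 and the histone chaperone genes Asf1b and Nasp by 2.05 and 1.69.

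Promoters of some replication and mitosis genes are shown next because members of these lists moved together. They are 150 bases before the RefSeq start in GRCm38.p6, written 5′ to 3′ on the strand of the gene, with capitals on every match to the motifs searched: the E2F-type letters TTTCGCG with their variants, of which TTTGGCG is the first and TTTCCCG is the second, the CHR element TTTGAA, the CCAAT box, the full CRE TGACGTCA and its core, TGACG. Both strands were searched, so a reverse complement such as TTCAAA is capital too, and each full CRE contains the core. Hells (chr19:38930840-38930989, plus strand) and Rfc3 (chr5:151651209-151651358, minus strand) show E2F-type letters, which overlap each other in Hells. Cdc20 (chr4:118437344-118437493, minus strand) and Ube2c (chr2:164769779-164769928, plus strand) show CHR letters beside CCAAT. All the printed promoters hold E2F-type or CHR letters, but they are examples and do not stand for every gene that fell. Among others, those of Cdt1, Anln, Chek1, Cenph and Ccne1, which also fell, held no match in this window. The promoters of Cdc45 and Aspm, which fell too, held CCAAT alone.
Hells: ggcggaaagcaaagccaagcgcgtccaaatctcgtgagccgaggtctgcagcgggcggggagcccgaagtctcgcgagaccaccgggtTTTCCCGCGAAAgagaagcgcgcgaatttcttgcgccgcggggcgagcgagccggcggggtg
Rfc3: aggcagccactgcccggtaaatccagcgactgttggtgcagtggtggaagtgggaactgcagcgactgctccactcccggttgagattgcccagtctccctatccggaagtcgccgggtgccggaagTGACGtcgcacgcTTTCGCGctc
Cdc20: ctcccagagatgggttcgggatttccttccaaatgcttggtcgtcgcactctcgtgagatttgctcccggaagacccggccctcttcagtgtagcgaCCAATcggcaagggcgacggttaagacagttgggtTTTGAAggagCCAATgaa
Ube2c: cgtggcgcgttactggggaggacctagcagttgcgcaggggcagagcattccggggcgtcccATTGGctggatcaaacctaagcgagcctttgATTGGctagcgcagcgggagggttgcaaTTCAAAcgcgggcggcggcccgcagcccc

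Over windows of 250 bases before to 50 after the start, 23 of 72 promoters found for the S-phase lists held E2F-type letters (31.9%), against 5.72% of all 27025 promoters and 8.74% of the 9887 found for measured genes. CHR letters stood in 38 of 81 promoters of the mitosis lists (46.9%), against 18.1% of all and 13.0% of those of measured genes. CCAAT was held by 60.5% of the mitosis promoters and 37.9% of all. Among genes that fell by at least 1 unit 16.9% had E2F-type and 18.7% CHR letters, and among genes that rose by as much 5.86% and 8.94%. A match describes the letters and shows neither binding nor a cause.

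Mitotic genes fell too. Of 18 G2/M cyclins and mitotic kinases 17 fell (median −1.69), all of them by at least 1 unit. The exception was Cdc25b, a phosphatase that activates mitotic kinases, with 8.95, 8.87 and 8.76 at 24 h and 8.06, 8.23, 8.17 and 8.17 at 0 h, a rise of 0.70 ± 0.13. Aurkb, the kinase of the chromosomal passenger complex, had 8.74, 7.23 and 7.46 at 24 h and 10.75, 10.85, 10.52 and 10.65 at 0 h, well apart, and fell by 2.88 ± 0.23 (adjusted p = 4.54e-09). The kinase genes Melk and Haspin, which marks histone H3, both fell by 2.38, and Pbk by 2.31.

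Kinetochore and spindle checkpoint genes fell in 24 of 25 cases (median −1.56) and mitotic motor, spindle and cytokinesis genes in 23 of 25 (median −1.42), with 0 higher in either. Ska1, of a complex that holds kinetochores on microtubules, fell by 2.30, Zwilch, of the checkpoint, by 2.21, and the centromere genes Cenpn and Cenph by 2.19 and 2.13. Anln, which encodes the cytokinesis protein anillin, fell by 2.39, and Tacc3, Hmmr and Aspm, of the spindle, by 1.98, 1.94 and 1.93. Of 17 condensin, cohesin and related genes 13 fell and 3 rose (1 rose without array 19), with Ncapd2 and Ncapg2, condensin subunits, at −1.97 each. The condensin gene Smc4 rose by 1.11 ± 0.13 while its partner Smc2 fell by 1.43 ± 0.16. The anaphase-promoting complex was less uniform, with 7 of 15 lower (median −0.23). Its activator Cdc20 fell by 1.22 and its ubiquitin-conjugating enzyme genes Ube2c and Ube2s by 1.38 and 0.86.

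The 24 h and 6 h WT arrays were compared in the same fit, where 2441 genes passed (19.7%), 1221 higher (9.85%) and 1220 lower at 24 h (9.84%). Lower at 24 h than at 6 h were 17 of 18 G2/M kinase genes, 24 of 25 kinetochore genes, 23 of 25 motor genes, 13 of 15 licensing genes and 24 of 25 polymerase genes. The comparisons with 0 h share the untreated arrays, so their medians are given side by side only. For the G2/M kinases these were 0.07 at 2 h, 0.16 at 6 h and −1.69 at 24 h, and for licensing −0.00 at 2 h, −0.28 at 6 h and −1.66 at 24 h. Ttk, a spindle checkpoint kinase, had a change of −1.75 at 24 h and 0.73 at 6 h, and lay 2.48 lower at 24 h than at 6 h (adjusted p = 2.2e-08).

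DNA repair and checkpoint genes fell in 28 of 32 cases (median −1.0), 1 rose, and 18 were lower at 24 h than at 6 h. Ung, the uracil glycosylase of replicating cells, stood at 8.20, 5.78 and 6.18 at 24 h and at 10.42, 10.25, 9.47 and 9.60 at 0 h, without overlap, and fell by 3.22 ± 0.47. Chek1, the kinase of the replication checkpoint, fell by 2.85, the nuclease gene Exo1 by 2.52 and Rad51ap1, of homologous recombination, by 2.36. The 1 member that rose was Rad52, by 0.42 ± 0.11.

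Of 8 BH3-only genes 2 rose (25.0%) and 1 fell (12.5%), near the 16.3% of all genes in each direction (median 0.01). Bcl2l11, which encodes BIM, stood at 11.27, 12.38 and 12.08 at 24 h against 9.23, 8.82, 8.95 and 9.12 at 0 h. These groups were more than 2 units apart at their nearest arrays, and the rise was 2.88 ± 0.18 (adjusted p = 1.31e-10). It was also 1.51 higher at 24 h than at 6 h (adjusted p = 6.61e-06). Bad rose by 0.46 ± 0.10 with overlapping arrays, and Bid, which links death receptors to mitochondria, fell by 0.54 ± 0.11. Bbc3 (PUMA), Pmaip1 (NOXA) and Bmf had changes of −0.19, 0.02 and 0.01, with adjusted p of 0.53, 0.989 and 0.994. Of the BAX-type effectors 0 of 2 passed, with −0.04 for Bak1 (adjusted p = 0.956).

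On the protective side, Bcl2, Bcl2l1 and Mcl1, the main antagonists of BIM, had changes of 0.15, 0.16 and 0.28, none of which passed (adjusted p = 0.409, 0.317 and 0.258). Of the 9 measured genes of this group with the inhibitor of apoptosis (IAP) family 4 rose, all of them IAP genes: Naip2 by 2.28, Birc3 by 1.84, Birc2 by 0.87 and Xiap by 0.73. Birc6 alone fell, by 0.38, and its adjusted p was 0.0566 to 0.122 when any of arrays 4, 13, 16, 36 or 39 was left out. Caspase and apoptosome genes had 2 higher (12.5%) and 4 lower (25.0%) of 16, near the 16.3% of all genes in each direction. The initiator caspase genes Casp8 and Casp9 rose by 0.77 and 0.60. Cycs, which encodes cytochrome c, fell by 0.86, and Casp8ap2, Htra2 and Aifm1 by 0.72, 0.65 and 0.57, while the adaptor gene Apaf1 had a change of 0.26 (adjusted p = 0.602).

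Of 12 death receptor and adaptor genes 3 rose (25.0%) and 2 fell (16.7%), near the 16.3% of all genes in each direction. Only 1 fell without array 4 or 19, and 0 on arrays 16 to 47 alone. Fas, the death receptor, had 6.60, 8.25 and 8.05 at 24 h and 6.54, 6.18, 6.38 and 6.28 at 0 h, a rise of 1.29 ± 0.29 to which array 4 contributed little. Cflar, which encodes the caspase-8 inhibitor c-FLIP, rose by 1.40 ± 0.16. Of 17 measured p53 targets 6 rose and 1 fell (median 0.08). Gadd45a, a stress and growth-arrest gene, stood at 12.27, 12.23 and 12.38 at 24 h against 8.76, 8.02, 8.21 and 8.74 at 0 h and rose by 3.86 ± 0.46. Its 24 h arrays lay close together and far above the untreated ones. Trp53inp1, Sesn1 and Ddit4, stress-response genes, rose by 2.58, 2.19 and 1.89, and Aen, a nuclease gene, fell by 1.57.

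FoxO targets and lymphocyte quiescence genes rose in 15 of 24 cases and fell in 0 (median 0.82). Ccr7, a homing receptor of resting T cells, had 7.38, 7.77 and 7.69 at 24 h against 4.21, 4.29, 4.37 and 4.30 at 0 h and rose by 3.32. Ccng2, a cyclin of arrested cells, rose by 2.88, Txnip, a brake on glucose uptake, by 2.63 and Pdcd4, an inhibitor of translation, by 2.60. Klf2, a quiescence factor, had a change of −0.14 (adjusted p = 0.962), and Il7r, the receptor of a survival cytokine, 0.01 at levels between 2.54 and 2.71.

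The Myc network was divided between its members, with 5 of 13 higher and 4 lower (3 higher without array 19). Myc had 8.89, 8.13 and 8.11 at 24 h against 10.14, 10.11, 11.02 and 10.71 at 0 h and fell by 2.12 ± 0.31 (adjusted p = 1.4e-05). All treated arrays were lower. Mxd4, a repressor that competes with Myc for its partner, stood at 11.83, 12.31 and 12.36 at 24 h against 8.66, 9.02, 9.05 and 8.67 at 0 h and rose by 3.31 ± 0.16 (adjusted p = 3.95e-12). It was 2.01 higher at 24 h than at 6 h, whereas Myc differed by 0.02 between these times (adjusted p = 0.982). Mxd3, a relative of Mxd4 that is active in S phase, fell by 1.23, and Mycn had a change of 0.07 (adjusted p = 0.765).

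Of 67 nucleolar assembly genes 63 fell and 0 rose (median −1.13), 41 of them by at least 1 unit. Grwd1, a chaperone of a ribosomal protein, fell by 2.23, Nolc1, a nucleolar scaffold, by 2.08, Gnl3, the GTPase nucleostemin, by 2.05 and Nhp2, of the H/ACA particles, by 1.83. Gnl3 levels were 11.93, 10.06 and 10.65 at 24 h and 12.95, 13.24, 12.84 and 12.71 at 0 h, without overlap. The median of these genes was −0.37 at 2 h, −1.02 at 6 h and −1.13 at 24 h, and 9 of the 67 were lower and 1 higher at 24 h than at 6 h, beside 9.84% and 9.85% of all genes. Of 22 RNA polymerase I and III genes 13 fell and 2 rose. The large polymerase I subunits Polr1b and Polr1a fell by 2.02 and 1.68, and the small polymerase III subunit Polr3k rose by 0.98.

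Cytosolic ribosomal protein genes did not share these falls. Of 40 measured, 7 rose (17.5%, near the 16.3% of all genes) and 2 fell (5.00%), with a median of 0.09. When array 1, 36 or 39 was left out, 3 or 4 rose. Rps6 rose by 0.73 ± 0.12, and Rpl12 and Rps25 fell by 1.53 and 0.89. Mitochondrial ribosomal protein genes fell in 43 of 54 cases, with 1 higher (median −0.65), among them Mrps28 (−1.50), Mrps18b (−1.45) and Mrpl12 (−1.26). The riser was Mrpl24, by 0.46 ± 0.13. Mitochondrial import and quality-control genes fell in 22 of 28 (median −0.81), with Timm8a1 and Timm9, chaperones between the membranes, at −1.96 and −1.72, and the pore gene Tomm40 at −1.69.

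The pathways that make nucleotides and their precursors fell together. Of 17 serine, glycine and folate genes 14 fell and 0 rose (median −1.26). Shmt1, the cytosolic serine hydroxymethyltransferase, stood at 8.22, 5.45 and 6.58 at 24 h against 10.37, 10.51, 9.87 and 9.83 at 0 h and fell by 3.40 ± 0.49. The treated arrays were all lower, but spread over nearly 3 units. Shmt2, its mitochondrial counterpart, fell by 2.69 ± 0.22 and Mthfd2, of the same mitochondrial pathway, by 2.24. Chdh, a choline dehydrogenase, fell by 3.16 ± 0.21. Purine synthesis had 10 of 12 lower (median −1.29), led by Ppat, its first committed enzyme (−2.34), and Gart (−2.11). Pyrimidine synthesis had 5 of 8 lower, with Ctps, CTP synthase, at −2.04, Umps at −1.94 and Cad at −1.85. The second CTP synthase gene, Ctps2, went the other way, with 7.66, 8.71 and 8.45 at 24 h and 6.14, 6.04, 7.15 and 6.52 at 0 h, a rise of 1.81 ± 0.31.

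Of 24 aminoacyl-tRNA synthetase genes 21 fell and 0 rose (median −0.97), with Yars at −1.61, Cars at −1.56, Iars at −1.42 and Aars at −1.41. Among ATF4 targets 7 of 17 fell and 0 rose. Cth, which makes cysteine, fell by 3.29 ± 0.83, with 3.22, 3.59 and 3.84 at 24 h, against 5.63, 4.82, 8.14 and 8.78 at 0 h, where arrays 1 and 13 were far below arrays 16 and 36. Asns, asparagine synthetase, fell by 1.69 and Eif4ebp1, a translation repressor, by 1.84. Amino acid transporters had 5 of 16 lower (31.2%) and 2 higher (12.5%), beside 16.3% of all genes in each direction. Without array 19 there were 3 lower, and without array 4 there was 1 higher. Slc1a5, a glutamine carrier, was at −1.73 and Slc6a9, a glycine carrier, at −1.34. Translation factors had 24 of 41 lower and 4 higher (7 higher with the array set as a term, median −0.38), as in Eif3b, which fell by 1.41, and the elongation factor gene Eef2, which rose by 0.43. Glycolysis had 3 of 20 genes higher (1 without array 19) and 3 lower, and cholesterol synthesis 4 of 22 higher (2 without array 13, 19 or 39) and 0 lower. For cholesterol synthesis, 4 rose and 4 fell with the array set as a term, and 2 rose and 3 fell on arrays 16 to 47 alone, so no direction is given for this list. Cytosolic chaperones fell in 22 of 27 cases and rose in 3 (1 rose without array 13, 19 or 36), with a median of −0.68. The HSP90 co-chaperone genes Fkbp4, Fkbp5 and Ahsa1 fell by 1.92, 1.72 and 1.57, and the prefoldin gene Pfdn5 rose by 0.88.

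Of 46 lysosome and V-ATPase genes 25 rose and 2 fell (1 fell without array 16 or 19, median 0.51), and 23 were higher at 24 h than at 6 h. Lipa, the acid lipase, rose by 2.51 ± 0.17, Cln3, a lysosomal membrane protein, by 2.23 and Gm2a, a ganglioside activator, by 1.94. Ctsa, which encodes the protective protein cathepsin A, stood at 8.48, 8.42 and 8.32 at 24 h and at 6.63, 6.42, 6.43 and 6.43 at 0 h. Its groups were tight and apart, the rise was 1.93 ± 0.11 (adjusted p = 2.81e-11), and nearly all of it, 1.88, lay between 6 and 24 h (adjusted p = 1.02e-09). Autophagy genes rose in 15 of 29 cases and fell in 0 (1 fell without array 16 or without array 39, median 0.31). The lowest change in this list, −1.74, did not pass. Those that rose included Gabarap and Map1lc3b, which coat the forming autophagosome, with 1.42 and 1.28. Rb1cc1, a scaffold of the initiating kinase complex, rose by 1.38 and the kinase gene Ulk2 by 1.31.

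ER chaperone and unfolded-protein-response genes had 8 of 30 higher and 6 lower, and 18 of the 30 were lower at 24 h than at 6 h. Without array 19, 5 rose and 2 fell, and on arrays 16 to 47 alone 10 rose and 12 fell, so the balance of this list depends on the arrays used. Their median change was 0.06 at 24 h and 0.60 at 6 h. Eif2ak3, which encodes the stress kinase PERK, rose by 2.76 ± 0.16, Atf6, a stress sensor, by 1.41 and Edem2, of ER-associated degradation, by 1.11. Sdf2l1, a chaperone cofactor, fell by 1.35. Proteasome genes fell in 27 of 39 cases with 3 higher (median −0.47), from the regulatory subunit gene Psme3 at −1.37 to Psme4, an alternative cap, which rose by 0.59.

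In the nucleus, splicing and transport genes fell. Of 51 spliceosome and hnRNP genes 41 fell and 0 rose (median −0.72), led by Srsf2, a splicing regulator (−1.63), Lsm2 (−1.50) and Snrpa1 (−1.48). Of 46 nuclear pore and transport genes 42 fell and 0 rose (median −1.19). The pore subunit genes Nup43 and Nup85 fell by 2.13 and 1.84, Xpo5, the exporter of precursor miRNAs, by 1.99 and Rcc1, which sets the Ran gradient, by 1.95. Among lamins and envelope genes the members divided, 5 higher and 4 lower of 12. Lmna, the lamin of differentiated cells, had 9.13, 8.50 and 8.59 at 24 h against 5.38, 4.87, 4.40 and 4.12 at 0 h and rose by 4.05 ± 0.30 (adjusted p = 1.05e-09). All treated arrays were at least 3 units above all untreated ones. The B-type lamin genes Lmnb2 and Lmnb1 fell by 2.40 and 1.69, and Sun2 and Syne1, which link the nucleus to the cytoskeleton, rose by 1.89 and 1.52. Of 39 Polycomb and chromatin modifier genes 16 fell and 7 rose (4 rose without array 1 or 13). Ezh2, the Polycomb methyltransferase of dividing cells, fell by 1.15 ± 0.18, and its relative Ezh1, found in resting cells, rose by 1.00 ± 0.17.

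The genes of the cAMP pathway itself differed by list. Of 8 PKA subunit and inhibitor genes 2 rose (25.0%) and 1 fell (12.5%), near the 16.3% of all genes in each direction. Only 1 rose without array 1, 13, 19 or 39, and 0 fell without array 13, 16, 36 or 39. Prkar1a, the regulatory subunit that restrains the kinase, rose by 0.86 ± 0.10, while Prkaca, a catalytic subunit, had a change of −0.19 (adjusted p = 0.22). Of 11 phosphodiesterases 3 rose and 0 fell: Pde1b by 2.34, Pde4b by 1.69 and Pde10a by 1.60, enzymes that degrade cyclic nucleotides. Pde1b stood at 8.75, 9.69 and 9.38 at 24 h and at 5.98, 6.95, 7.53 and 7.29 at 0 h, without overlap, and was 1.82 higher at 24 h than at 6 h (adjusted p = 0.000534). CREB-family genes and coactivators rose in 5 of 9 cases. Crem, which encodes CREB-related activators and the repressor ICER, had 9.70, 10.27 and 9.58 at 24 h against 4.20, 4.09, 4.20 and 4.08 at 0 h. It rose by 5.71 ± 0.36 and differed by 0.16 between 24 and 6 h (adjusted p = 0.916).

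Immediate-early factors rose in 10 of 26 cases and fell in 0 (6 rose without array 19). Nfil3, a transcription factor that cAMP is known to raise, rose by 2.76 ± 0.63 and the phosphatase gene Dusp1, which switches off MAP kinases, by 3.02 ± 0.45. Fos had 6.71, 5.51 and 5.92 at 24 h against 3.46, 3.29, 3.13 and 4.49 at 0 h and rose by 2.45 ± 0.39, but it lay 1.87 lower at 24 h than at 6 h (adjusted p = 0.00268). Nr4a1, an orphan nuclear receptor, had a change of 0.74 at 24 h (adjusted p = 0.148). Among 31 RGS and G protein genes 12 rose and 1 fell. Ramp3 and Ramp1, which modify receptors coupled to G proteins, rose by 5.75 and 2.49, and Rgs2, which shortens G protein signals, by 4.76. The prostaglandin receptor gene Ptger4, a receptor that raises cAMP, was the member that fell, by 1.97.

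Dusp1 (chr17:26508473-26508622, minus strand) and Sgip1 (chr4:102759985-102760134, plus strand) are printed because they rose and stand for a full CRE and for a core alone, with the same window, strand rule and capitals as above. The Dusp1 window also holds CHR letters on the other strand.
Dusp1: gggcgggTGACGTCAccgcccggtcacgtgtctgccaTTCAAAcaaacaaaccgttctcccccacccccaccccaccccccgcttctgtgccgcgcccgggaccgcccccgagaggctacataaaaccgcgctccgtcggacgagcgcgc
Sgip1: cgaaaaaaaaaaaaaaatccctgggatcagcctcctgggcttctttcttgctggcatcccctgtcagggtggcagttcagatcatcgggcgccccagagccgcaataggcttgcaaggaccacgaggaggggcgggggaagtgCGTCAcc

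A full CRE stood in 3.08% of the 649 promoters found for genes that rose by at least 1 unit, 3.34% of the 598 for genes that fell by as much and 2.75% of those of measured genes. For the core the shares were 31.9%, 41.0% and 28.4%.

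Genes of T-cell identity and signalling moved in both directions. Of 24 T-cell receptor and proximal signalling genes 14 rose and 2 fell (median 0.63), and 8 were higher at 24 h than at 6 h. Txk, a Tec-family kinase, had 8.90, 9.25 and 9.43 at 24 h against 4.16, 4.15, 4.14 and 4.34 at 0 h and rose by 5.00 ± 0.31 (adjusted p = 1.4e-10), with the groups far apart. Ptpn22, a phosphatase that damps receptor signals, rose by 4.12, the kinase gene Prkcq by 3.11 and the costimulatory receptor gene Cd28 by 2.48. Thy1 fell by 0.77, and Cd2 fell by 1.36, or 0.79 below untreated cells without array 4. Of 16 Rag, pre-TCR and Notch genes 5 fell (31.2%) and 4 rose (25.0%), beside 16.3% of all genes in each direction. Only 3 fell without array 19 or without array 39. Ptcra, the pre-TCR alpha chain, and Rag1, the antigen-receptor recombinase, fell by 4.91 and 4.44, while the Notch target Hes1 rose by 1.32 and Notch2 by 1.44. Rag1 was 1.04 higher at 24 h than at 6 h (adjusted p = 0.0013), though 24 h levels of 7.17, 7.27 and 6.92 remained far below the 11.39, 11.48, 11.91 and 11.45 at 0 h.

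T-lineage transcription factors rose in 12 of 29 cases and fell in 1. Id2, an inhibitor of E proteins, rose by 2.11, Gata3 by 1.75 and Gfi1, a repressor, by 1.41, while Bcl11b, which holds the T-cell fate, fell by 1.06. Among costimulatory and TNF-family receptors 6 of 19 rose, led by Tnfrsf18 (GITR) with 5.24 and Ctla4, a checkpoint receptor, with 4.79, and 0 fell. Granzymes, perforin and related granule genes rose in 9 of 13 cases and fell in 0 (median 1.00). Gzmb had 7.60, 10.45 and 8.86 at 24 h against 4.61, 4.87, 4.87 and 4.88 at 0 h, a rise of 4.16 ± 0.51. The treated arrays were spread over nearly 3 units, yet all lay above the untreated ones. Srgn, the core protein of granule proteoglycans, rose by 3.99 ± 0.20, and Ctla2b and Ctla2a, protease inhibitor-like genes, by 6.70 and 6.05.

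Of 32 cytokine and cytokine receptor genes 14 rose and 1 fell. Ifngr1, Ifnar1 and Il12rb1, receptors of interferons and of interleukin 12, rose by 3.28, 2.66 and 2.69, and Il10, an anti-inflammatory cytokine, fell by 3.87 ± 0.34. JAK, STAT and SOCS genes rose in 11 of 21 cases and fell in 1, with Jak2 at 2.23, Pias3 at 1.90, Jak1 at 1.76 and Stat3 at 1.69. Homing receptors, chemokines and integrins rose in 16 of 33 and fell in 2. Cd53 and Cd37, leukocyte tetraspanins, rose by 4.89 and 3.24, and Cxcr4, the receptor of a marrow chemokine, fell by 0.92.

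Interferon-inducible genes had 15 of 36 higher and 2 lower (8 higher without array 39). Irf8, a transcription factor, rose by 3.54 ± 0.40 with 10.60, 11.57 and 11.32 at 24 h against 7.32, 7.33, 7.94 and 7.91 at 0 h. Gbp6 and Igtp, interferon-induced GTPases, rose by 3.76 ± 0.84 and 2.67 ± 0.56, with array 4 the lowest treated array for each. Ifi204, a DNA sensor, fell by 4.37 ± 0.19, and Bst2, which tethers viruses, by 1.53. In antigen presentation, 6 of 13 genes rose and 2 fell (1 fell without array 4 or 13, and on arrays 16 to 47 alone). Tapbpl and Tapbp, of peptide loading, rose by 2.39 and 1.94 and Tap1, the peptide transporter, by 1.34, while H2-T3, a class Ib gene, fell by 3.05. The classical gene H2-D1 rose by 1.49, but 3 other probe sets of H2-D1 passed in the opposite direction, so its direction is uncertain. NF-kB subunits and inhibitors rose in 8 of 20 cases, among them Tnfaip3 (1.66) and Nfkbiz (1.46), both inducible regulators of the pathway.

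Among the 12393 genes the largest rise was that of Sgip1, an endocytosis adaptor known from neurons, with 12.07, 12.64 and 12.52 at 24 h against 3.52, 3.52, 3.81 and 4.65 at 0 h (8.53 ± 0.30, adjusted p = 4.9e-14). Olig3, a neural transcription factor, rose by 5.84, Acer2, a Golgi ceramidase, by 5.66 and Maged1, a melanoma antigen family gene, by 5.01. Wif1, an extracellular Wnt inhibitor, rose by 5.01 and Tktl1, a transketolase-like gene, by 4.63. These genes were taken from those whose 24 h and 0 h arrays did not overlap, so that separation was a condition of the choice.

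Some genes differed strongly between 24 and 6 h. Scg5, a secretory granule chaperone, had 7.35, 9.69 and 9.42 at 24 h, against 4.29, 4.13, 3.73 and 4.16 at 0 h, and was 4.43 higher at 24 h than at 6 h (adjusted p = 3.54e-08). Pparg, a nuclear receptor of lipid metabolism, had 7.36, 8.35 and 7.87 at 24 h against 4.70, 3.65, 3.62 and 3.55 at 0 h and was 3.76 higher at 24 h than at 6 h (adjusted p = 9.91e-09). The changes of these genes from 0 h had been 0.31 and 0.22 at 6 h. Ms4a4b, a T-cell membrane protein, was 3.17 higher, Cxcr6, a chemokine receptor, 3.10 and Pnpla7, a lysophospholipase, 2.73. In the opposite direction Gbp2b, a guanylate-binding protein, was 3.14 lower at 24 h than at 6 h (adjusted p = 0.00422). Its change from 0 h was 0.32 at 24 h (adjusted p = 0.931) and 3.46 at 6 h. Pmf1, a kinetochore gene, was 2.76 lower, Ercc6l, a helicase of mitotic chromatin, 2.60 and Melk 2.57.

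Kin- cells with the same agent for the same time gave the comparison without PKA activity. There, 0 of 22626 probe sets passed in limma (0%), and the smallest adjusted p was 0.283. An unadjusted limma p under 0.05 was found for 491, fewer than the 5% that this threshold gives on average without any change. Leaving out an array gave 0 to 4 probe sets past the test, and array weights gave 1. The WT response minus the Kin- response was tested directly, and 2948 genes passed (23.8%), 1455 higher in WT (11.7%) and 1493 lower (12.0%). Lower in WT were 13 of 15 licensing genes, 17 of 18 G2/M kinases, 58 of 67 nucleolar genes and 36 of 46 nuclear pore genes, and higher in WT were 19 of 46 lysosomal genes and 12 of 24 quiescence genes. Bcl2l11 had a change of 2.88 in WT and 0.02 in Kin- (difference 2.86, adjusted p = 7.14e-08), and Ccne2 −3.64 in WT and −0.09 in Kin- (difference −3.55, adjusted p = 4.67e-07). Over all probe sets the changes ran from −4.95 to 8.98 in WT and from −1.45 to 0.98 in Kin- cells, with 2676 probe sets at 1 unit or more in either direction in WT and 7 in Kin-.

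The 3 treated arrays differed in the size of the group medians. The median change of the licensing genes against the untreated arrays of the same array set was −1.04 on array 4, −2.29 on array 19 and −1.77 on array 39, and that of the G2/M kinases −1.20, −2.18 and −1.72 on the same arrays. Nucleolar genes had −0.86, −1.35 and −1.25, while mitochondrial ribosomal protein genes had −0.61, −0.65 and −0.54. Among groups that rose, the medians were 0.67, 0.87 and 0.88 for quiescence genes and 0.44, 0.64 and 0.73 for lysosomal genes. Array 4 was near 0 for cytokine and receptor genes (0.03, 0.51 and 0.29) and for homing genes (0.04, 0.31 and 0.41), and granule genes had 0.24, 0.95 and 1.34. Array 4 is the only 24 h WT array among arrays 1 to 14, so a difference of that sample and one of its array set cannot be told apart. Without array 4 the medians were −1.92 for licensing, −1.98 for G2/M kinases and −1.32 for nucleolar genes, and 13 of 15 licensing genes fell, against 14 with all arrays.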

How the data were processed

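Gene expression was measured on 26 oligonucleotide arrays, and groups were taken from the sample titles. The authors deposited 1 table of scores per probe set, from 0.375 to 267; how these scores were normalised, summarised and scaled is not given in any source used here. Depth has no meaning for arrays, and their number limits the precision. Square roots were taken, which gave column medians of 5.40 to 5.53. With limma 3.58.1 in R 4.3.3, a mean for each of 8 groups was fitted over 26 arrays and 22626 probe sets, with Benjamini-Hochberg adjustment over all probe sets. Of these, 20380 have 1 gene symbol, 691 several and 1555 none in the platform annotation, and names were matched to the RefSeq gene table by gene ID for 20351. Each of 12393 genes was represented by its probe set with the highest mean; 1295 genes had another probe set past the test, 20 of them with one of opposite sign.

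The genes, lists and tests were chosen with earlier results of these data known. Of 1645 members written in 61 lists, 1396 were measured; the others, Bax, Ccnb1 and Trp53 among them, were not analysed here. Named genes are the 15 largest rises and 15 largest falls without overlapping arrays, up to 4 members of each list in each direction, the 8 largest changes in each direction between 24 and 6 h, and a fixed set of cell cycle, death and cAMP genes. Csf1r, Itgam and Krt5 were named after their values were seen. The fit was tested on simulated data in which arrays varied independently. That test cannot tell how the array sets affect the p-values. No 2 arrays of a group were copies (root mean square differences 0.170 to 0.454). Arrays numbered in series (1 to 4, 16 to 19 and 36 to 39) deviated together at 24 and 0 h (r = 0.342, 0.268 and 0.276), as did arrays of the same set from other series, such as 13 and 4 (0.282). Alternatives were the array series as a block, the array set as a term or alone, array weights, another power, the groups compared alone, probe sets averaged, and each array left out.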

Additional observations from a re-analysis of the deposited data

Results flagged for a closer look

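In the untreated WT group of 4 arrays, 8 of the 250 named genes had an array set apart from the others by Dixon's criterion at its 95% level, which chance meets in about 5% of groups. Array 1 was high for Pparg (4.70, others 3.55 to 3.65), Ctsa (6.63, others 6.42 to 6.43), Pde10a (6.49, others 6.17 to 6.20) and Pole2 (10.60, others 10.33 to 10.36), and low for Gzmb (4.61, others 4.87 to 4.88). Array 13 was low for Naip2 (5.15, others 6.06 to 6.17) and Birc3 (6.10, others 6.53 to 6.57), and array 36 was high for Txk (4.34, others 4.14 to 4.16). In each of these genes all 24 h arrays lay outside the range of the untreated ones. Named genes were largely chosen by their change between these groups, so this separation was partly built in.

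The response at 24 h differed between WT and Kin- cells in 4859 probe sets by the direct test of the difference in limma, 2306 higher and 2553 lower in WT. Of the 250 named genes 221 passed that test, beside 2948 of all 12393 genes (23.8%). Many named genes were picked by their WT change at 24 h, which is part of that difference. Their high share was therefore partly built in.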

How the results depend on the processing

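Leaving out each array in turn gave 5899 to 6982 probe sets past the test for WT at 24 h against 0 h (6780 with all arrays), 2297 to 3109 changes of at least 1 unit (2611), 3219 to 4466 for 24 h against 6 h (4028), 4292 to 5307 for the difference between lines (4859) and 0 to 4 for Kin- (0). With arrays 1 to 14 alone, which hold 1 WT array at 24 h whose spread is then assumed like that of other groups, the counts were 3183, 1420, 0 and 722 in the same order without Kin-, and Hsp90b1 turned to 0.05 (adjusted p = 0.835); fewer arrays enter that fit. For 24 h against 6 h, fitting only the groups compared gave 1883 and array weights 7322; array weights gave 1 for Kin-. The cause of these differences was not tested. With the array series as a replicate block the counts were 7907 for 24 h against 0 h, 5808 for 24 h against 6 h, 6199 for the difference between lines and 0 for Kin-, all within 1.5 times. Of 348 genes examined singly, 113 no longer passed with arrays 1 to 14 alone and 7 with arrays 16 to 47 alone, and 87 of 2436 single-gene results no longer passed without 1 array. Only 326 of the 348 genes had passed with all arrays, so the others had no call to lose. The count of members past the test moved over 1.5 times in 18 of 427 list results without 1 array, counted in the more common direction of each list. In several other lists a small count in the less common direction moved by 1 gene without 1 array or with another treatment of the array sets. The square-root scale is an assumption, and power 0.75 ended the call of 1 gene.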
